A study of Mus musculus with 10 samples.

Results

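The type I interferon response genes described here are 37 listed interferon-stimulated genes of the mouse, of which 36 were read by a probe of their own and 31 were detected (detection p-value below 0.05) on 2 or more of 10 arrays. On the whole array 19057 genes had a probe and 9744 met the same criterion. The remaining listed genes were Ifi44, for which no probe was analysed here, and Ifit1, Oas1a, Mx1, Mx2 and Xaf1, which were not detected on 2 arrays. The rule used names and detection and not the size of any change. The names themselves were chosen with earlier results of these data known, so shares of these genes called are descriptive only. Trim30a was detected on the 2 arrays of tumor-bearing mice and on no other array, so it could enter the list through that group alone.

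The arrays were Illumina mouse bead arrays of total RNA from purified circulating neutrophils of female nude NCR mice, an athymic strain. Fresh cells came from control mice (2 arrays) and from mice bearing 4T1 tumors, a mouse mammary carcinoma line (2 arrays), and received no treatment. All other cells came from control mice and were kept for 2 h in OptiMEM with 0.5% fetal bovine serum, with 1 array for each of 6 conditions: the medium without and with G-CSF, in either case without a chemokine, with CCL2 or with CCL5. The chemokines were the mouse proteins at 20 ng/ml, and G-CSF was recombinant human protein whose dose is not given in the sources used here. The age of the mice, and whether arrays came from separate or pooled animals, are not given either. The p-values therefore refer to these arrays only and not to a known number of animals.

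Type I interferons bind the receptor made of Ifnar1 and Ifnar2, and the kinases Jak1 and Tyk2 then activate Stat2. Together with Irf9 it acts in the complex ISGF3, which binds the interferon-stimulated response element in the promoters of target genes. The induced proteins sense viral RNA, block its translation or degrade it, and tune the signal itself, and resting neutrophils are known to express a number of these genes. G-CSF, the cytokine that drives neutrophil production, signals mainly through Stat3, while CCL2 and CCL5 are chemokines acting on G protein-coupled receptors.

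The promoter windows of the genes were searched for 2 motifs, because they are the sequences through which interferons are known to act. Of the 31 detected genes 23 had at least 1 window in the RefSeq table (GRCm38.p6). The core of the response element was GAAA, any 2 bases and GAAA again, read on both strands, and the gamma-activated site was spelled TTCNNNGAA, which is its own reverse complement. In the 250 bases before the start, 7 of the 23 genes (30.4%) held the response element core, against 936 of 27025 genes in the table (3.46%). The gamma-activated site was found in 5 of 23 (21.7%), against 8.13% of all genes. The core stood in Stat2, Ifit3, Oas3, Isg15, Trim30a, Rsad2 and Bst2, and among these Ifit3, Rsad2, Isg15, Oas3 and Stat2 are printed because their signal was lower with G-CSF in the comparison below. Capitals mark the matched bases, and each line runs 5′ to 3′ on the gene's strand.
Ifit3, chr19:34583279-34583528, plus strand: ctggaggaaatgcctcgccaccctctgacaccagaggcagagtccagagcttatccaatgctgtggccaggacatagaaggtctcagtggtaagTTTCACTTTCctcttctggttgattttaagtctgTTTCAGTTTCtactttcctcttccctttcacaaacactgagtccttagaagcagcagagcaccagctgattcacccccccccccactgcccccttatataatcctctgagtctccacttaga
Rsad2, chr12:26456453-26456702, minus strand: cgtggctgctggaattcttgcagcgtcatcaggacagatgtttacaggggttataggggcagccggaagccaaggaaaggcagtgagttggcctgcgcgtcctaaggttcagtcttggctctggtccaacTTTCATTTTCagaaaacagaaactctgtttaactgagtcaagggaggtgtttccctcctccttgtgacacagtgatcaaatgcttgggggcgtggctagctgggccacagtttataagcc
Isg15, chr4:156200819-156201068, minus strand: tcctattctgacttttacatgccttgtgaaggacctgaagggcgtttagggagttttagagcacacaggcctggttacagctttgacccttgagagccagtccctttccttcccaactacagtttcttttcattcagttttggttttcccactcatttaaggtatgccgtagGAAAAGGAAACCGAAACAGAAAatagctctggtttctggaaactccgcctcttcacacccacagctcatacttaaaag
Oas3, chr5:120777660-120777909, minus strand: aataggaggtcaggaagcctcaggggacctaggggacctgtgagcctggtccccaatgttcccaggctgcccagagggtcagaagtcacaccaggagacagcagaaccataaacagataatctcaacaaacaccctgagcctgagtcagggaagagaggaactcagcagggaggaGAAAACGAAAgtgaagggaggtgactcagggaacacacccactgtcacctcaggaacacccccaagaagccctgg
Stat2, chr10:128270248-128270497, plus strand: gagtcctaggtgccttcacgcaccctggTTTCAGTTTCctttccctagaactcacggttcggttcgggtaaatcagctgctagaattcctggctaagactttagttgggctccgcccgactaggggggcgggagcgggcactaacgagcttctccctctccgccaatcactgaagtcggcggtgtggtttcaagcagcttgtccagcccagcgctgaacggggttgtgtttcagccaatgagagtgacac
Counted from the start, with -1 the base just before it, the first matched base lay at -156 and -122 in Ifit3, at -120 in Rsad2, at -75 in Oas3 and at -222 in Stat2. Isg15 had 3 overlapping matches, at -78, -72 and -66. Of the 13 genes in the table that were lower with G-CSF 5 held the core, and of the 7 that were tested and not called 0 did. A match is a description of the letters, and genes without one, such as Cmpk2, Oasl1 and Oasl2, simply lack these letters in this window.

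Values below are normalized signals, corrected for background with an offset of 16 added, quantile-normalized and written on the linear scale. They compare arrays for 1 probe and not probes with each other. A gene's detection limit lay at a normalized signal of 27.5 to 30.2, depending on the array, and 23 of the 31 genes were detected on all 10 arrays. For the probe each of the 31 genes was read from, the standard error over beads was 3.1% to 9.45% of the raw signal. Changes are log2 differences with the standard error (SE) of a limma fit, and a gene was called where its Benjamini-Hochberg adjusted p over all genes was below 0.05. The fits had 2 residual degrees of freedom for the fresh and for the cultured arrays, and a gene's spread was moderated by that of all genes. Each cultured condition had 1 array, so the spread in that fit is departure from additive effects and not spread between replicates. Csf3r, which encodes the G-CSF receptor and marks neutrophils, read 13130 to 14340 on the fresh arrays and 6669 to 7822 on the cultured arrays.

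**Figure D1:**
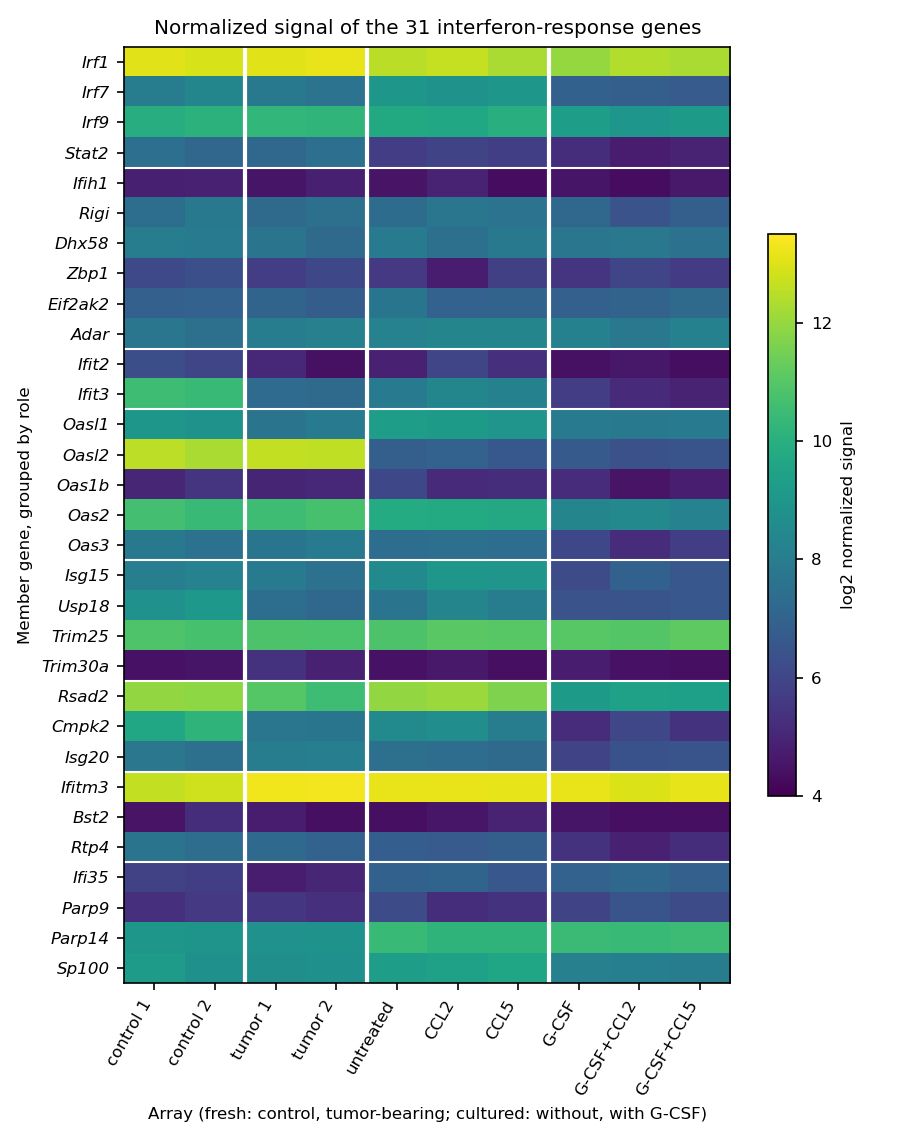
Normalized signal (log2, colour) of the 31 detected interferon-response genes (rows, grouped by role) on each of the 10 arrays (columns), with white lines between fresh control, fresh tumor-bearing, cultured without G-CSF and cultured with G-CSF. Rows can be compared across arrays but not with each other, and the row of Oasl2 goes from 4992 to 6398 on the 4 fresh arrays to 81.1 to 125.6 on the 6 cultured arrays.

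The first comparison set fresh neutrophils of tumor-bearing mice against those of control mice. Ifit3 and Cmpk2 fell most. Most of the genes, including the transcription factors and RNA sensors, were not called, as was the case for most genes on the array. Of 30 genes tested 7 fell (Ifit3, Cmpk2, Usp18, Ifit2, Oasl1, Rsad2 and Ifi35) and 2 were called higher (Trim30a and Ifitm3). These are 23.3% lower and 6.67% higher, while 15.2% of all 8019 tested genes were called lower and 10.8% higher (26% in either direction). The median change of the 30 was -0.18, against -0.04 for all genes tested. Samples of the groups did not overlap in 13 genes that were lower and 6 that were higher, and over all genes this held for 35.3% and 28.3%.

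The IFIT proteins bind viral RNA that lacks the host's cap methylation. Ifit3 read 1514 and 1365 on the control arrays and 161.7 and 154.5 on the arrays of tumor-bearing mice. Both low values lay far below both high ones, a 9.10-fold difference (log2 change -3.19 ± 0.19 SE, n = 2 and 2, limma adjusted p = 3.69e-07). Its dimmer probe read 109.7 and 153.1 against 47.8 and 39.7 (log2 change -1.57). Ifit2, its neighbour on the chromosome, read 76.9 and 63.8 in control mice and 33.6 and 21.3 in tumor-bearing mice (log2 change -1.39 ± 0.23, limma adjusted p = 8.71e-04). These signals lie near the detection limit, and 1 of the 2 tumor-bearing arrays detected the gene.

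Cmpk2, a mitochondrial nucleotide kinase, and Rsad2, which makes the antiviral nucleotide ddhCTP, are also adjacent genes, and both fell. Cmpk2 went from 816.9 and 1157 to 212.8 and 205.6 (log2 change -2.22 ± 0.21, limma adjusted p = 1.07e-05). Rsad2 went from 3973 and 3737 to 2021 and 1498 (log2 change -1.15 ± 0.20, limma adjusted p = 0.00132). In both genes the groups were clearly apart. Usp18 removes Isg15 from proteins and restrains the interferon receptor, and it read 452 and 542 in control against 173 and 146.5 in tumor-bearing mice (log2 change -1.64 ± 0.20, limma adjusted p = 6.93e-05). The modifier Isg15 itself read 269.9 and 299.2 against 236.9 and 192.6, a change of -0.41 ± 0.19 that did not pass the test (adjusted p = 0.139).

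The OAS family, whose enzymes make the 2-5A messenger that switches on RNase L, was split. Oasl1, a relative known in mice to limit Irf7 translation, read 527.2 and 475.1 in control and 199.8 and 233.3 in tumor-bearing mice (log2 change -1.21 ± 0.19, limma adjusted p = 5.76e-04). Its 2 other probes gave -1.55 and -0.31. Oasl2, the adjacent gene, read 6015 and 4992 against 6398 and 6149. The groups were just apart, but the change did not pass the test (0.20 ± 0.19, limma adjusted p = 0.49), and its 2 dimmer probes gave 0.79 and 0.10. Oas2 (0.10 ± 0.19) and Oas3 (0.11 ± 0.20) were not called either. Ifi35 read 57.2 and 53.6 against 27.3 and 32.4 (log2 change -0.90 ± 0.19, limma adjusted p = 0.00427), and 1 of the 2 tumor-bearing arrays detected it. Without background correction Ifi35 changed by -0.29 (limma adjusted p = 0.0464) and Ifit2 by -0.50.

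Ifitm3, a membrane protein that blocks viral fusion, went the other way. It read 6346 and 7169 in control mice and 10020 and 10190 in tumor-bearing mice, without overlap (log2 change 0.58 ± 0.19, limma adjusted p = 0.0361). Trim30a, a ubiquitin ligase of the TRIM family, read 41.6 and 29.5 in tumor-bearing mice and was below detection in control mice (at least 1.25-fold higher). As it entered the fit through the tumor-bearing arrays alone it had to differ, and its call is no evidence of a rise. The count of genes higher was 0 without the first control array or without either array of tumor-bearing mice. The adjusted p of Ifitm3 was then 0.109 to 0.143, and Trim30a could not be tested without an array of tumor-bearing mice.

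The transcription factors of the response were not called. Irf7 read 263 and 327.1 in control and 227.7 and 196.6 in tumor-bearing mice (-0.47 ± 0.20, limma adjusted p = 0.0981). Changes of Irf1, Irf9 and Stat2 were 0.13, 0.25 and 0.01, each with an SE of 0.19 to 0.20. Of the 6 sensors and RNA-binding genes (Ifih1, Rigi, Dhx58, Zbp1, Eif2ak2 and Adar) 0 were called, with limma adjusted p-values down to 0.0879 for the RNA editor Adar. As 26% of all genes tested were called in either direction, such small counts of 0 say little about these groups. Under scaling to a common median Adar was called higher (0.60, limma adjusted p = 0.0431).

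Markers of other blood cells moved on the same arrays. Among the 25 tested, covering monocytes, dendritic cells, B, T and NK cells, red cells and platelets 19 were lower and 0 higher (median -1.58). Of all genes tested 15.2% were called lower and 10.8% higher. Markers that may have entered the fit through the control arrays alone were not set apart. The signal summed over 35 such genes was 27940 to 30350 in control and 15720 to 19570 in tumor-bearing mice. Sums follow the brightest probes of a list. Of this sum, 2 red cell genes made up 16520 to 16860 in control and 11450 to 15100 in tumor-bearing mice. The 31 interferon-response genes summed to 34330 to 35860 in control and 35060 to 35210 in tumor-bearing mice. Among dendritic cell genes H2-Ab1 (-2.52 ± 0.19) and Cd74 (-2.38 ± 0.21), which B cells express too, fell. Tcf4, from the same list of plasmacytoid and other dendritic cell genes, was called lower as well (-0.74 ± 0.19, limma adjusted p = 0.0137). Siglech, a marker of the plasmacytoid dendritic cells that are the main producers of type I interferon, read 49.5 and 54.3 against 70.1 and 33.5 (-0.10 ± 0.28), and Itgax stood at 0.22 ± 0.22. Ccr2, Ccr9, Flt3, Cd209a, Cd4, Cd8a, Ncr1, Klrb1c, Ppbp and Gp9 were not detected on 2 arrays. Of 11 neutrophil markers 4 rose and 0 fell, and they summed to 77520 to 84000 in control and 76480 to 87050 in tumor-bearing mice. The part of other cells in the falls of interferon-response genes was not tested. In such bulk samples fewer cells of a type and less RNA per cell cannot be told apart.

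**Figure D2:**
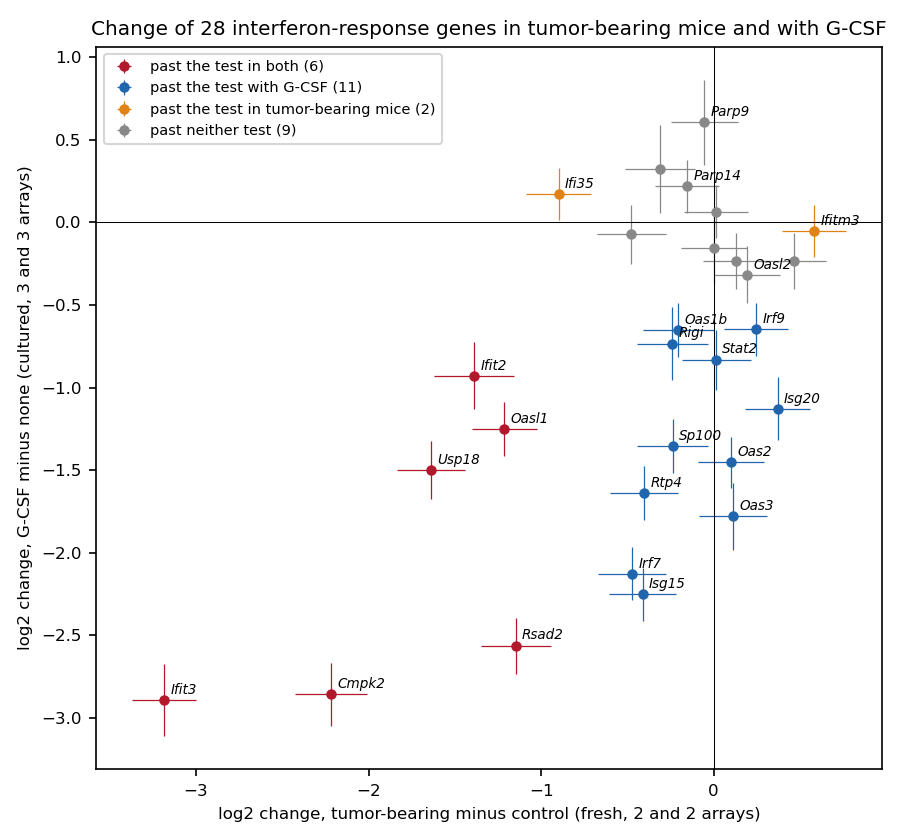
Log2 change in tumor-bearing against control mice (horizontal, 4 fresh arrays) and with G-CSF against without (vertical, 6 cultured arrays) of the 28 interferon-response genes tested in both, with bars of 1 SE. Red points (6 genes) passed the test in both comparisons and lie at the lower left, blue points (11 genes) passed with G-CSF alone, orange points (2 genes) in tumor-bearing mice alone and grey points (9 genes) in neither. The red point of Ifit2 had to differ with G-CSF, because it entered that fit through the arrays without G-CSF alone.

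The next comparison asked what G-CSF changed in culture, with 3 arrays that received it against 3 that did not, matched by added chemokine. Here the program fell broadly: 17 of 28 genes tested were lower and 0 were higher, 60.7% against 12.3% of all 8610 tested genes lower and 16.6% higher (28.9% in either direction). The median change of the 28 was -0.78, against 0.06 for all genes. In 19 of the 28 genes all 3 matched pairs were lower and in 2 all were higher, against 24.3% and 33.4% of all genes. Under scaling to a common median, which moved the median of all genes to 0.41 and made 88.9% of all called genes higher (57.3% with quantile normalization), 14 genes stayed lower, with a median of -0.45. In that scaling 5 were called higher, namely Dhx58, Ifi35, Parp14, Parp9 and Zbp1.

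Among the effectors, Ifit3 read 249.3 untreated, 328.5 with CCL2 and 287.4 with CCL5, and 52.2, 36.0 and 30.6 in the same order with G-CSF. The last value is close to the detection limit, and the groups were far apart (log2 change -2.89 ± 0.22 SE, n = 3 and 3, limma adjusted p = 1.13e-04). Its other probe was not detected with G-CSF and was at least 1.45-fold lower. Cmpk2 read 374.1, 403 and 260.5 without G-CSF and 37.1, 65.8 and 42.3 with it, a change of -2.86 ± 0.19 (limma adjusted p = 8.28e-05). Rsad2 was bright on every array and read 3935, 4305 and 3222 against 578.6, 689.5 and 664.6, so its fall of -2.56 ± 0.17 (limma adjusted p = 8.11e-05) did not rest on dim values. Isg20, an RNA exonuclease, read 182.9, 167.2 and 154.7 against 61.2, 83.6 and 88.5 (-1.13 ± 0.19, limma adjusted p = 0.00347). Ifit2 was not detected on any array with G-CSF and was at least 1.51-fold lower. It entered this fit through the arrays without G-CSF alone, so it had to differ, and its place among the 17 is no evidence of a fall.

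Isg15, its protease Usp18 and the transcription factor Irf7 fell as well, while the enzymes that attach Isg15, Uba7 (-0.34 ± 0.16) and Ube2l6 (-0.29 ± 0.18), did not pass the test. Isg15 read 366.8, 523 and 495.6 without G-CSF and 73.2, 125 and 96.3 with it (log2 change -2.25 ± 0.16, limma adjusted p = 1.03e-04). Irf7, the factor that amplifies interferon production, read 522.3, 467.9 and 528.5 against 124.5, 117.4 and 106, also without overlap (-2.13 ± 0.16, limma adjusted p = 1.13e-04). Usp18 read 203.5, 317.5 and 256.5 against 86.4, 88.1 and 96.2 (-1.50 ± 0.18). Its other probe gave -0.96 but lay at the detection limit with G-CSF, at 28.3 to 29.2. Of the ISGF3 subunits, Irf9 changed by -0.65 ± 0.16 (adjusted p = 0.0178; other probe -1.19) and Stat2 by -0.83 ± 0.18 (adjusted p = 0.0108). Irf1 read 4095 to 5463 with G-CSF and 4984 to 6428 without, overlapping ranges, and was not called (-0.24 ± 0.17, limma adjusted p = 0.339). Its 4 dimmer probes lay between -1.04 and -0.46.

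In the OAS family 4 of 5 genes tested fell. Oas2 read 915.3, 906 and 841.3 without G-CSF and 322.8, 353.9 and 298 with it (log2 change -1.45 ± 0.16, limma adjusted p = 4.81e-04). Oas3 changed by -1.78 ± 0.21 (its other probe, not detected with G-CSF, was at least 1.38-fold lower) and Oasl1 by -1.25 ± 0.16 (its 2 others -1.30 and -1.56). Oas1b lay near the detection limit at -0.65 ± 0.16, and its other probe gave 0.33. Oasl2 had little signal left in any culture, 97.1 to 125.6 without G-CSF and 81.1 to 102.5 with it, and was not called (-0.32 ± 0.17, limma adjusted p = 0.201). Sp100, a nuclear body protein, fell (-1.35 ± 0.16), and its other detected probes gave -1.21 and -1.37. Rtp4, a receptor transporter protein, changed by -1.64 ± 0.16 (limma adjusted p = 3.57e-04). It read 115.8, 107.3 and 116.6 without G-CSF and 42.3, 29.6 and 38.3 with it, close to the detection limit.

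Among the genes that were not called, Ifitm3 read 9274, 9307 and 9045 without G-CSF and 9346, 8255 and 9045 with it (-0.05 ± 0.16). Trim25, the ligase that activates Rigi, read 1854, 2158 and 2081 against 2118, 1971 and 2278 (0.06 ± 0.16). Ifi35 (0.17 ± 0.16), Parp14 (0.22 ± 0.16) and Parp9 (0.60 ± 0.26) had changes above 0, and none passed. The sensor Rigi read 165, 212.9 and 198.3 without G-CSF and 149.2, 87.1 and 116.5 with it (-0.73 ± 0.22, limma adjusted p = 0.0377). Its other detected probe, near background, gave 0.14. The calls of Rigi, Irf9 and Oas1b were lost under median scaling (adjusted p = 0.562, 0.398 and 0.0655), and leaving out single arrays also ended each of them. Without background correction, as in the authors' processed values, 10 of the 17 changes were over 1.5 times smaller: Ifit3 (-1.56), Cmpk2 (-1.66), Usp18 (-0.95), Oas3 (-0.91), Rtp4 (-0.69), Isg20 (-0.63), Rigi (-0.45), Ifit2 (-0.33), Stat2 (-0.27) and Oas1b (-0.22, no longer called).

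Markers of non-neutrophil blood cells were lower with G-CSF in 17 of 23 tested genes and higher in 0 (median -0.98). Of all genes tested 12.3% were called lower and 16.6% higher. Markers that may have entered this fit through the arrays without G-CSF alone were not set apart. Of 11 neutrophil markers 2 fell and 3 rose. The summed signal of 35 non-neutrophil genes was 25590 to 26930 without G-CSF and 9081 to 9962 with it. Of this, 2 red cell genes made up 13750 to 15090 without and 3306 to 3971 with G-CSF. The summed signal of the 31 interferon-response genes was 26720 to 29770 without and 20370 to 21210 with G-CSF, and that of the 11 neutrophil markers 60260 to 62760 and 65200 to 65950. H2-Ab1 (-1.22 ± 0.16), Cd74 (-1.03 ± 0.16) and Itgax (-0.71 ± 0.17) fell, and Siglech read 26.2 to 50.6 without and 24.7 to 31.7 with G-CSF, near the detection limit. Tcf4 was not called with G-CSF (0.22 ± 0.15). The part of other cells in the fall was not tested.

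**Figure D3:**
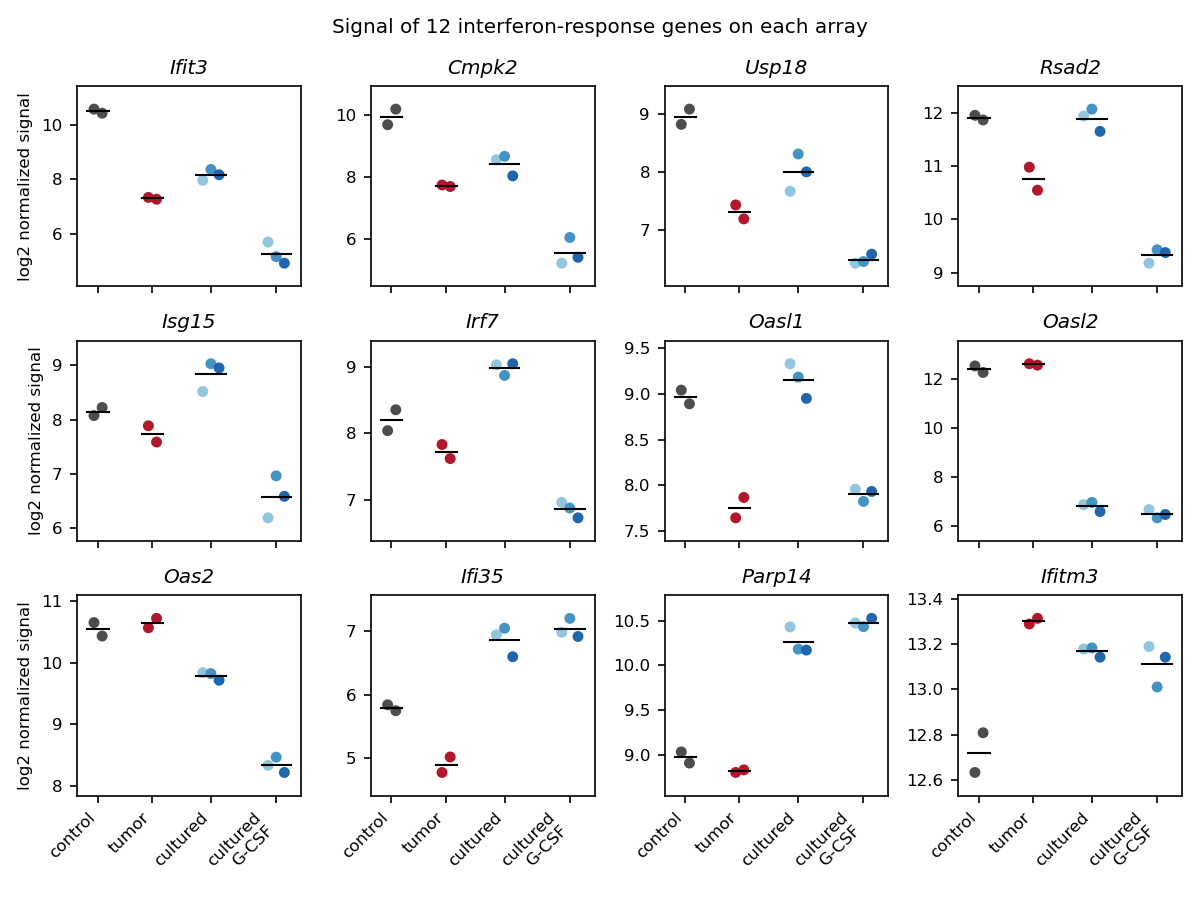
Normalized signal (log2, vertical, scaled for each gene) of 12 interferon-response genes on every array, in the groups fresh control, fresh tumor-bearing, cultured without and cultured with G-CSF, where black lines are group means and light, middle and dark blue mark no chemokine, CCL2 and CCL5. Rsad2 falls from 3222 to 4305 without G-CSF to 578.6 to 689.5 with it, while Parp14 is higher on all 6 cultured arrays than on the 4 fresh ones.

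The tumor and the G-CSF comparison share no array, although all 10 were normalized together. Of 28 genes tested in both, 6 were lower in both (Cmpk2, Ifit2, Ifit3, Oasl1, Rsad2 and Usp18), 21.4%, against 4.83% of 7334 genes. Ifit2 is counted here although it entered the G-CSF fit through the arrays without G-CSF alone. It had to differ there, so its place among the 6 is no evidence of a shared fall. Of the 28, 0 were higher in both, 0 higher in tumor-bearing mice and lower with G-CSF, and 0 the reverse, against 3.1%, 1.2% and 1.77% of all genes. In 11 genes the fall with G-CSF passed the test while the change in tumor-bearing mice did not, namely Irf7, Irf9, Stat2, Rigi, Oas1b, Oas2, Oas3, Isg15, Isg20, Rtp4 and Sp100, a pattern of 7.51% of all genes. Whether their changes differ between the settings was not tested.

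The chemokines were compared within the same cultures, with 2 arrays each against the 2 without a chemokine, so that both effects share control arrays with each other. In limma 0 of 28 interferon-response genes passed for CCL2 and 0 for CCL5, as for 0% of all genes. At an unadjusted p below 0.05 there were 3 for CCL2 (Oas1b, Isg15 and Ifit2), with 5.08% of all genes, and 1 for CCL5 (Oas1b), with 4.08%. Changes ran from -0.83 to 0.64 with CCL2 and from -0.60 to 0.42 with CCL5, with standard errors of 0.19 to 0.33, so changes of this size were not detectable here. Median scaling moved the median of all genes for CCL2 from -0.01 to -0.16. Isg15 read 366.8 untreated and 523 with CCL2, and 73.2 with G-CSF and 125 with G-CSF and CCL2 (0.64, unadjusted p = 0.0103, limma adjusted p = 0.947).

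The last comparison set untreated culture against fresh control neutrophils, in a fit of all 10 arrays with 4 residual degrees of freedom. It rests on 1 untreated array, the other cultured arrays through additive terms, and the control arrays used above. Culture and experiment cannot be told apart. Oasl2 fell by far the most, and the remaining genes were split between falls, rises and no call. Of 31 genes tested 8 fell and 5 rose, 25.8% and 16.1%, against 17.8% and 16.4% of all 9744 genes (34.2% in either direction), with a median of -0.07 against -0.02. Of all called genes 47.9% were higher, and 35% under median scaling, where 3 of the members were higher and 10 lower. Zbp1 (-0.97) and Rtp4 (-0.81) were called lower in that scaling only. The count of members was 5 lower and 3 higher without the first control array, and also 5 and 3 without the untreated array.

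Oasl2, a ubiquitin-like OAS relative, read 6015 and 4992 on the fresh control arrays and 117.8 in untreated culture. On the other cultured arrays it read 81.1 to 125.6, so every cultured array lay far below every fresh one. The fitted fall was 44.7-fold (log2 change -5.48 ± 0.21, limma adjusted p = 1.24e-09). Its other probes gave -3.87 and -2.52 as plain differences from the untreated array. The adjacent Oasl1 read 527.2 and 475.1 fresh and 644.2 in untreated culture (0.30 ± 0.20, limma adjusted p = 0.286). Its dimmest probe read 40.9 and 46.2 fresh and 115.8 in culture.

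Ifit3 fell from 1514 and 1365 to 249.3 (-2.21 ± 0.25, limma adjusted p = 1.78e-05), Cmpk2 from 816.9 and 1157 to 374.1 (-1.62 ± 0.25) and Usp18 from 452 and 542 to 203.5 (-1.15 ± 0.22). Rsad2, the gene next to Cmpk2, read 3973 and 3737 fresh and 3935 in untreated culture, a change of -0.07 ± 0.22. Stat2 fell from 176.7 and 141.8 to 52.6 (-1.42 ± 0.23, limma adjusted p = 3.51e-04), Ifit2 by 1.01 on the log2 scale, Oas2 by 0.73 and Irf1 by 0.64. The fall of Irf1 is that of its brightest probe, and its others gave 0.02, -0.08, -0.09 and -0.56 as plain differences. Without background correction Stat2 changed by -0.75 and Ifit2 by -0.36. The culture and tumor comparisons share the control arrays. Leaving out single arrays ended the calls of Ifit2, Usp18, Oas2 and Irf1 here. Without the untreated array, for example, Ifit2 stood at -0.52 (limma adjusted p = 0.361) and Usp18 at -0.89 (0.0648).

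Among the genes that rose, Parp14, an ADP-ribosyltransferase, read 523 and 479.5 fresh and 1381 in untreated culture (1.38 ± 0.20, limma adjusted p = 1.13e-04), while its second probe gave -0.09 and the last was not detected in either group. Ifi35 rose from 57.2 and 53.6 to 123 (1.09 ± 0.20, limma adjusted p = 8.53e-04; 0.52 without background correction). Irf7 rose from 263 and 327.1 to 522.3 (0.86 ± 0.21, limma adjusted p = 0.00594). Irf7 was above fresh control in untreated culture and below it on the arrays with G-CSF, at 106 to 124.5. Oas1b (0.72 ± 0.22) and Adar (0.70 ± 0.21) were called on their brightest probe, but other probes gave -0.44 for Oas1b and -0.67 to 0.68 for Adar. As the mean of its probes Adar stood at -0.09, and without background correction Oas1b stood at 0.25 (adjusted p = 0.0824). The calls of Irf7, Oas1b and Adar were also lost without single arrays, that of Irf7 at an adjusted p of 0.0533 without the first control array and 0.0535 without the untreated array. The brightest probes of Trim25 and Parp9 were not called (0.11 and 0.30), while the second probe of Trim25 gave -0.99 as a plain difference and that of Parp9, not detected in untreated culture, was at least 1.56-fold lower. The signal of Csf3r changed by -0.93 ± 0.19 (limma adjusted p = 0.00174). Among 26 tested non-neutrophil markers 10 were lower and 6 higher here, against 17.8% and 16.4% of all genes tested. Of 11 neutrophil markers 5 fell and 3 rose, among them the granule protein Ltf by 5.02 ± 0.20. The part of this in the changes of interferon-response genes was not tested.

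**Figure D4:**
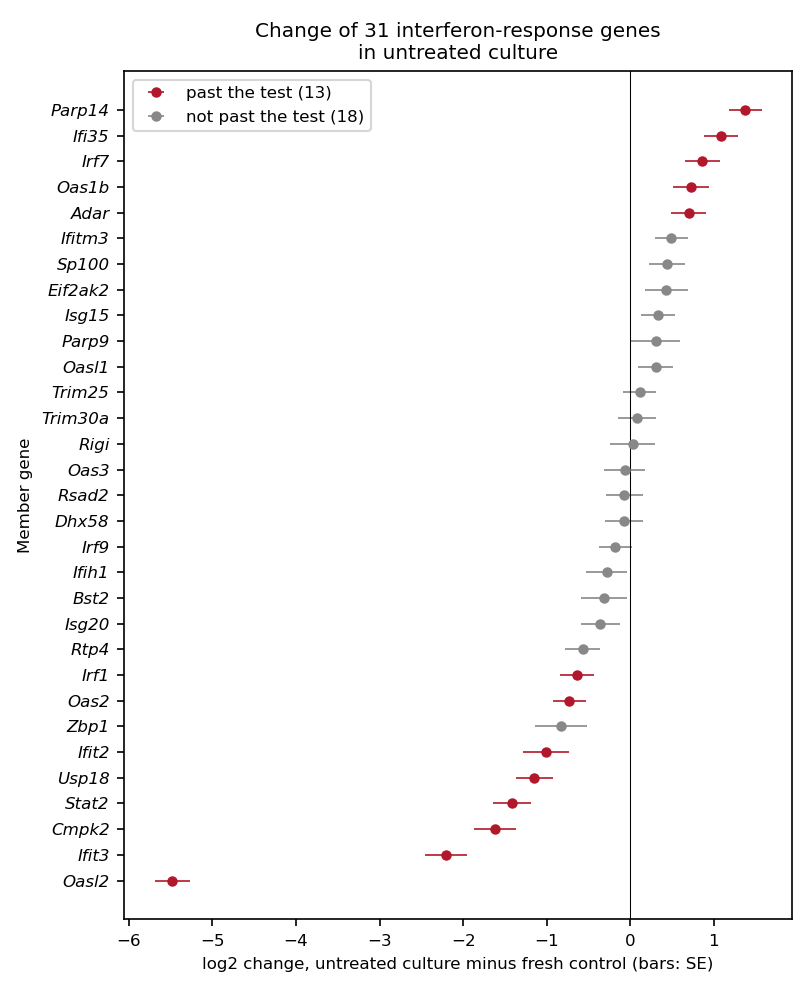
Log2 change of the 31 interferon-response genes in untreated culture against fresh control (horizontal, bars of 1 SE), sorted by size, with red points for the 13 genes past the test and grey points for the 18 that were not. The points spread from -5.48 for Oasl2 to 1.38 for Parp14.

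Genes that did not pass in the tumor, G-CSF or culture comparison were Ifih1, Dhx58, Zbp1, Eif2ak2, Trim25, Bst2 and Parp9. This holds for quantile normalization. Under median scaling Dhx58, Zbp1 and Parp9 were called higher with G-CSF and Zbp1 lower in untreated culture. Too few arrays detected Ifih1 for a test with G-CSF, and Bst2 for a test with G-CSF or in tumor-bearing mice. Both Ifih1 and Bst2 lay near the detection limit on every array, with normalized signals of 19.8 to 30.3 and 20.7 to 38.1. Eif2ak2, the kinase PKR that halts translation, read 111.9 to 205, and Dhx58, a regulator of the RNA sensors, 155.8 to 259.4.

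Upstream signalling genes were read from a list of 35, of which 32 had a probe. Their counts, like those of the next list, are to be read against the shares of all genes called, which were 15.2% lower and 10.8% higher in tumor-bearing mice, 12.3% and 16.6% with G-CSF, and 17.8% and 16.4% in untreated culture. The ligands Ifnb1, Ifna2, Ifna4, Ifna5, Ifnk and Ifng were not detected on 2 arrays, nor was the receptor gene Ifnar1. Ifnar2 read 225.9 to 319.5 on the fresh arrays and 617.7 to 1017 on the cultured ones. It rose in untreated culture (1.28 ± 0.23, limma adjusted p = 8.17e-04) and was not called with G-CSF (0.42 ± 0.17) or in tumor-bearing mice (0.00 ± 0.21). In tumor-bearing mice 4 of 20 tested signalling genes rose and 4 fell, with the interferon gamma receptor Ifngr1 at 1.24 ± 0.20 and the DNA sensor Cgas at 0.80 ± 0.19, against the myeloid factor Irf8 at -1.41 ± 0.21 and the RNA sensor Tlr7 at -0.92 ± 0.19. With G-CSF 2 of 22 rose, the kinase genes Ikbke (2.19 ± 0.17) and Tyk2 (0.95 ± 0.16), and 2 fell, Ifna1 (-0.64 ± 0.17) and Tlr7 (-0.63 ± 0.18). In untreated culture 9 of 23 rose, led by Ikbke (3.20 ± 0.23) and Tlr7 (2.49 ± 0.21), and 3 fell, with the feedback inhibitor Socs3 at -2.60 ± 0.21 and Jak1 at -1.48 ± 0.21.

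A second list held 60 further interferon-stimulated genes, 54 of them with a probe. In tumor-bearing mice 13 of 38 tested fell and 8 rose (median -0.26), with Pml, the scaffold of nuclear bodies, at -2.09 ± 0.21 and the ISG15-conjugating enzyme Ube2l6 at -1.49 ± 0.19, against the inflammatory caspase Casp4 at 1.70 ± 0.18 and the GTPase Gbp3 at 1.19 ± 0.20. With G-CSF 12 of 40 fell and 3 rose (median -0.20), with Ifi27l2a at -1.74 ± 0.16 and the GTPase Igtp at -1.72 ± 0.18, against Casp4 at 0.89 ± 0.18 and Gbp3 at 0.85 ± 0.17. In untreated culture 14 of 42 fell and 7 rose (median -0.21). Cxcl10, a chemokine induced by interferons, rose by 5.98 ± 0.25 there and Ms4a6d by 3.36 ± 0.21, while Ube2l6 stood at -3.06 ± 0.22 and Ifi47 at -1.91 ± 0.23. All of these passed limma at an adjusted p below 0.05.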

How the data were processed

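Total RNA of 10 purified neutrophil samples was measured on Illumina bead arrays (Trizol extracts labelled with Cy3), per the labels' protocols. Per the file headers, the deposited table gives for each of 45281 probes the mean signal intensity on the linear scanner scale, a detection p-value, and the number of beads and their standard error (other). The authors' processed log2 values differed from quantile-normalized log2 signals without background correction by at most 0.00531. Partek is named in the submitters' processing notes without a role.

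Signals were corrected with limma 3.58.1 in R 4.3.3 (nec, negative controls inferred from detection p-values, offset 16) and quantile-normalized over 10 arrays. A fit used probes detected (p-value under 0.05) on 2 or more of its arrays, and each gene was read from the brightest probe naming it alone (34885 probes name 1 gene, 18 several, 10378 none). Moderated two-sided tests (eBayes) were adjusted over all genes by Benjamini-Hochberg. Tumor-bearing against control used the 4 fresh arrays, the additions to culture an additive fit of the 6 cultured arrays, and culture all 10. The fits were tested on simulated data. "At least" marks bounds against the lowest detected signal. Members and lists were chosen with earlier results of these data known. Genes called in at least 1 comparison are described by value, and from the other lists up to 2 per direction with the smallest p. A few others were named after their values were seen, among them Siglech, Ltf and members that were not called. Gene symbols come from the platform annotation, and promoters and gene order from RefSeq (GRCm38.p6).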

Additional observations from a re-analysis of the deposited data

How the results depend on the processing

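In tumor-bearing mice 7 of 9 called genes kept their call under every alternative that could read them, with G-CSF 14 of 17 and in culture 6 of 13. The alternatives were other scalings, offsets, filters and probe rules, leaving out arrays, and other designs. Across them 0 values of the tumor and G-CSF comparisons reversed. In culture Adar reversed, with -0.0881 (adjusted p = 0.752) as the mean of its probes. Without background correction, which equals the authors' processed values, 3 of 9, 10 of 17 and 4 of 13 called changes were over 1.5 times smaller. In tumor-bearing mice that setting called 9 genes lower and 2 higher. Median scaling called 7 lower and 3 higher there, with Adar added to Ifitm3 and Trim30a.

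The count of genes higher in tumor-bearing mice, 2, was 1 without the detection filter, 1 with detection required on every array, and 0 to 2 when single arrays were left out. Leaving out arrays gave 7 to 8 lower. With G-CSF the count higher was 5 under median scaling and 0 to 1 without single arrays, against 15 to 16 lower. In culture 3 were higher and 10 lower under median scaling, and without single arrays 3 to 6 were higher and 5 to 10 lower. Where a lone array was left out, the remaining arrays are assumed to vary alike. Replicate numbers gave no pairing (r = 0.07 between replicate differences of the 2 groups over probes), and the fit with the replicate block again called 7 lower and 2 higher. The cultured arrays carry no shared replicate numbers. Their fit matches them by chemokine, and without the chemokine terms it called 16 lower and 0 higher with G-CSF. Signals near 30 on the normalized scale lie at background, which limits Ifih1, Bst2, Ifi35, Ifit2, Oas1b, Stat2 and Trim30a. It also limits Rtp4 and Ifit3 on the arrays with G-CSF.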
